A study of Mus musculus with 48 samples.

Results

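The ileum and the duodenum of 8-day-old mice were compared, using the 3 samples labelled ileum day 8 and the 3 labelled duodenum day 8. These 6 samples were chosen by their labels alone from the 48 of the series, which followed both regions over 8 ages from birth to 4 weeks. Every animal was an unmanipulated mouse of the C57Bl/6J genotype from Jackson labs, still with its dam at day 8. The duodenum sample was a piece of 2 cm taken just past the stomach outlet, and the ileum sample a piece of 2 cm taken just before the caecum. The labels' protocols describe whole bowel pieces, so each library could mix epithelium with connective tissue, muscle, nerves, vessels and blood. The share of each was not measured. Total RNA was sequenced, and the values were the estimated read counts per gene deposited by the authors. The word germ-free stands in the labels' account of the housing, and whether the mice were free of microbes was not settled by the sources used here. The labels say that both sexes were used, but all 6 libraries of day 8 carried Xist, the RNA of the inactive X chromosome, at 25038 counts or more, and none had a count for the Y-linked Ddx3y. Nothing states whether the samples of 1 region came from separate litters. The p-values rest on a spread between samples that was estimated over all ages fitted, and not from these 6 samples alone. Whether that spread includes differences between litters is not known.

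The small intestine is patterned along its length. The duodenum receives food from the stomach, bile and pancreatic juice, and its enterocytes take up iron, calcium, sugars and fat. The ileum recovers bile acids and vitamin B12. In suckling rodents the ileal enterocytes also swallow whole milk protein by endocytosis and break it down in giant lysosomes, a function that is lost at weaning. Region identity is held in the epithelium by transcription factors such as Pdx1 and Gata4 in the duodenum, and in the underlying mesenchyme largely by the Hox genes, whose expression is arranged along the gut axis. Crypts, the pockets that hold the dividing stem cells, are still forming in the mouse during the first weeks after birth.

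The duodenum libraries held 46719526 to 48920343 counts and the ileum libraries 17687321 to 30670271. Levels are given in CPM, the counts of a gene relative to a library size that was corrected with TMM factors (trimmed mean of M values). Differences are given as log2 of ileum over duodenum, so that a negative value means a higher level in the duodenum. CPM values are not divided by gene length, so levels are compared between samples and not between genes. Mitochondrial transcripts took 21.71% to 24.56% of the counts in the duodenum and 18.02% to 32.75% in the ileum, and ileum sample 1, the highest, also had the lowest total. Spearman correlation over 12436 genes was 0.996 between duodenum samples, 0.9753 to 0.9885 between ileum samples and 0.912 to 0.937 between the regions. The ileum samples therefore spread more widely among themselves than the duodenum samples, and ileum sample 1 stood farthest from the others.

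Of 21617 genes tested, 9973 (46.1%) differed between the regions at an adjusted p under 0.05 in edgeR's quasi-likelihood test. The ileum was higher for 4297 genes (19.9%) and the duodenum for 5676 (26.3%). Differences above 2-fold were more often in favour of the ileum, with 3145 genes (14.5%) against 1426 (6.60%). Above 4-fold the ileum was higher for 1565 genes and the duodenum for 208. When the test itself required a difference above 1.5-fold, 3866 genes (17.9%) passed, 2254 (10.4%) with the higher level in the ileum and 1612 (7.46%) with the higher level in the duodenum. The total was 2489 without duodenum sample 1 and 2508 without ileum sample 3. For 12970 genes (60.0%) the 3 samples of each region did not overlap. Some of the genes below were named by a rule that required this, so for them it adds no support. The percentages 19.9% and 26.3% are the background for the day 8 list counts under TMM. The median log2 difference over all genes tested was 0.00 under TMM, a value that depends on the scaling.

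The direction of small differences depended on the scaling. The 10 markers of the gut lining, the epithelium, summed to 5402 to 5834 CPM in the duodenum and 3999 to 4972 CPM in the ileum. When libraries were instead scaled to these 10 genes, an alternative chosen after seeing the data, the median of all genes moved up by 0.39 on the log2 scale and 78.6% of 8778 calls were higher in the ileum, against 43.1% under TMM. In the test above 1.5-fold the share went from 58.3% to 92.7% of calls. Below, TMM values are the main ones. Counts under the epithelium scaling are read against its own background, 31.9% of genes higher in the ileum and 8.69% in the duodenum. Leaving out 1 sample also moved several of the smaller list counts, and those that moved by over 1.5 times are given with the sample.

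Connective tissue markers had the highest median log2 difference of the 21 cell type lists. All 20 markers of fibroblasts and matrix were higher in the ileum, with a median of 3.31. Their summed level was 38.15 to 100 CPM in the duodenum and 340.2 to 663.6 CPM in the ileum. Pdgfra, the receptor that marks villus mesenchyme, stood at 0.754, 1.25 and 1.01 CPM in the duodenum and 19.4, 20.6 and 23.8 CPM in the ileum (log2 difference 4.40 ± 0.37 SE, adjusted p = 3.99e-10). Bmp4, a signal that restrains crypt growth, was at 0.129, 0.571 and 0.583 CPM in the duodenum and 7.05, 6.11 and 10.1 CPM in the ileum. The collagen gene Col1a1 was at 5.92, 6.87 and 13.1 CPM in the duodenum and 96.7, 53.7 and 110.2 CPM in the ileum. In each of these 3 genes the lowest ileum sample lay above the highest duodenum sample. Of the 10 blood endothelium markers 9 were higher in the ileum, as were 6 of the 7 of lymphatic endothelium and 8 of 16 of macrophages and dendritic cells. The summed blood endothelium level was 15.92 to 21.97 CPM in the duodenum and 83.93 to 103.2 CPM in the ileum. Of 7 genes of MHC class II, 3 were higher in the ileum, a count that was 0 without ileum sample 1, 0 without duodenum sample 2, 1 without duodenum sample 1 and 6 under epithelium scaling.

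Muscle and nerve markers shifted the same way. Of 15 smooth muscle markers, 14 were higher in the ileum and 1, Smtn, in the duodenum, a call that ended when any of duodenum samples 1 to 3 or ileum samples 1 and 2 was left out (edgeR adjusted p = 0.0851 to 0.166). Myh11, the smooth muscle myosin heavy chain, was measured at 0.991, 1.1 and 1.73 CPM in the duodenum and 17.7, 10.9 and 34.3 CPM in the ileum, and Acta2, smooth muscle actin, at 1.57, 1.61 and 2.29 CPM in the duodenum and 11.1, 7.9 and 15.3 CPM in the ileum. All 15 smooth muscle markers had counts in both regions. Of 18 enteric neuron markers tested, 11 were higher in the ileum and none in the duodenum. Vip, the neuropeptide of relaxing motor neurons, had no count in the 3 duodenum libraries and 0.696 CPM on average in the ileum, at least 32.1-fold higher. Glial markers split, with 2 of 8 higher in each region. The duodenum count was 1 without ileum sample 3. S100b, usually a glial marker, was the clearest of those higher in the duodenum, at 16.8, 14 and 16.7 CPM in the duodenum and 1.87, 1.32 and 1.4 CPM in the ileum. In bulk tissue, fewer cells of a type and less RNA per cell cannot be told apart, and the part of tissue composition in the gene differences below was not tested.

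Few single lymphocyte markers were called. None of 12 B and plasma cell markers was called, and their log2 differences ran from -0.29 to 1.02. Of 12 T cell markers 1 was called, Trac, the constant segment of the T cell receptor alpha chain, at 18.6, 17.9 and 20.7 CPM in the duodenum and 3.63, 2.5 and 3.2 CPM in the ileum. The T cell list summed to 25.83 to 30.83 CPM in the duodenum and 9.629 to 12.06 CPM in the ileum, without overlap. Most of the duodenum sum was Trac, so the sum largely follows 1 gene. The list median turned from -0.22 to 0.14 under epithelium scaling. Without duodenum sample 3, 1 T cell marker was called higher in the ileum. Red blood cell transcripts were higher in the duodenum for 2 of 8 genes, and their sum ran from 656.1 to 903.3 CPM there and from 272.0 to 439.9 CPM in the ileum. The red blood cell count was 1 under epithelium scaling and when any sample other than duodenum sample 3 was left out. Of 8 stomach markers tested, 5 were higher in the duodenum, where the list summed to 335.8 to 505.6 CPM against 15.86 to 32.82 CPM in the ileum. Without ileum sample 3 the stomach count was 3. Nearly all of that sum was Cym, chymosin, the milk-clotting protease of the suckling stomach, at 324, 459 and 338 CPM in the duodenum and 31, 20.1 and 14.6 CPM in the ileum. Tff2, a mucus peptide of stomach and duodenal glands, was at 0.603, 15.2 and 1.68 CPM in the duodenum and 0, 0 and 0.0281 CPM in the ileum, so that duodenum sample 2 carried most of its mean. Its counts, 820 against 1, give a ratio of 495 with an exact 95% interval of 88.5 to 19556. Of the stomach genes, Gkn1, Gkn2 and Tff1 did not pass the test and had no count in the ileum. Pancreatic acinar markers were higher in the duodenum for 4 of 19 genes and higher in the ileum for 1, Spink1. The 4 became 2 under epithelium scaling and without duodenum sample 1 or ileum sample 1, and 1 without ileum sample 2 or 3. The summed acinar level was the lower in the duodenum, at 207.9 to 227.9 CPM against 258.7 to 625.4 CPM. The list median was -1.92, on the duodenal side, so the sum did not follow the typical member. Zg16, given below with the goblet cell genes, is also in the acinar list.

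**Figure D1:**
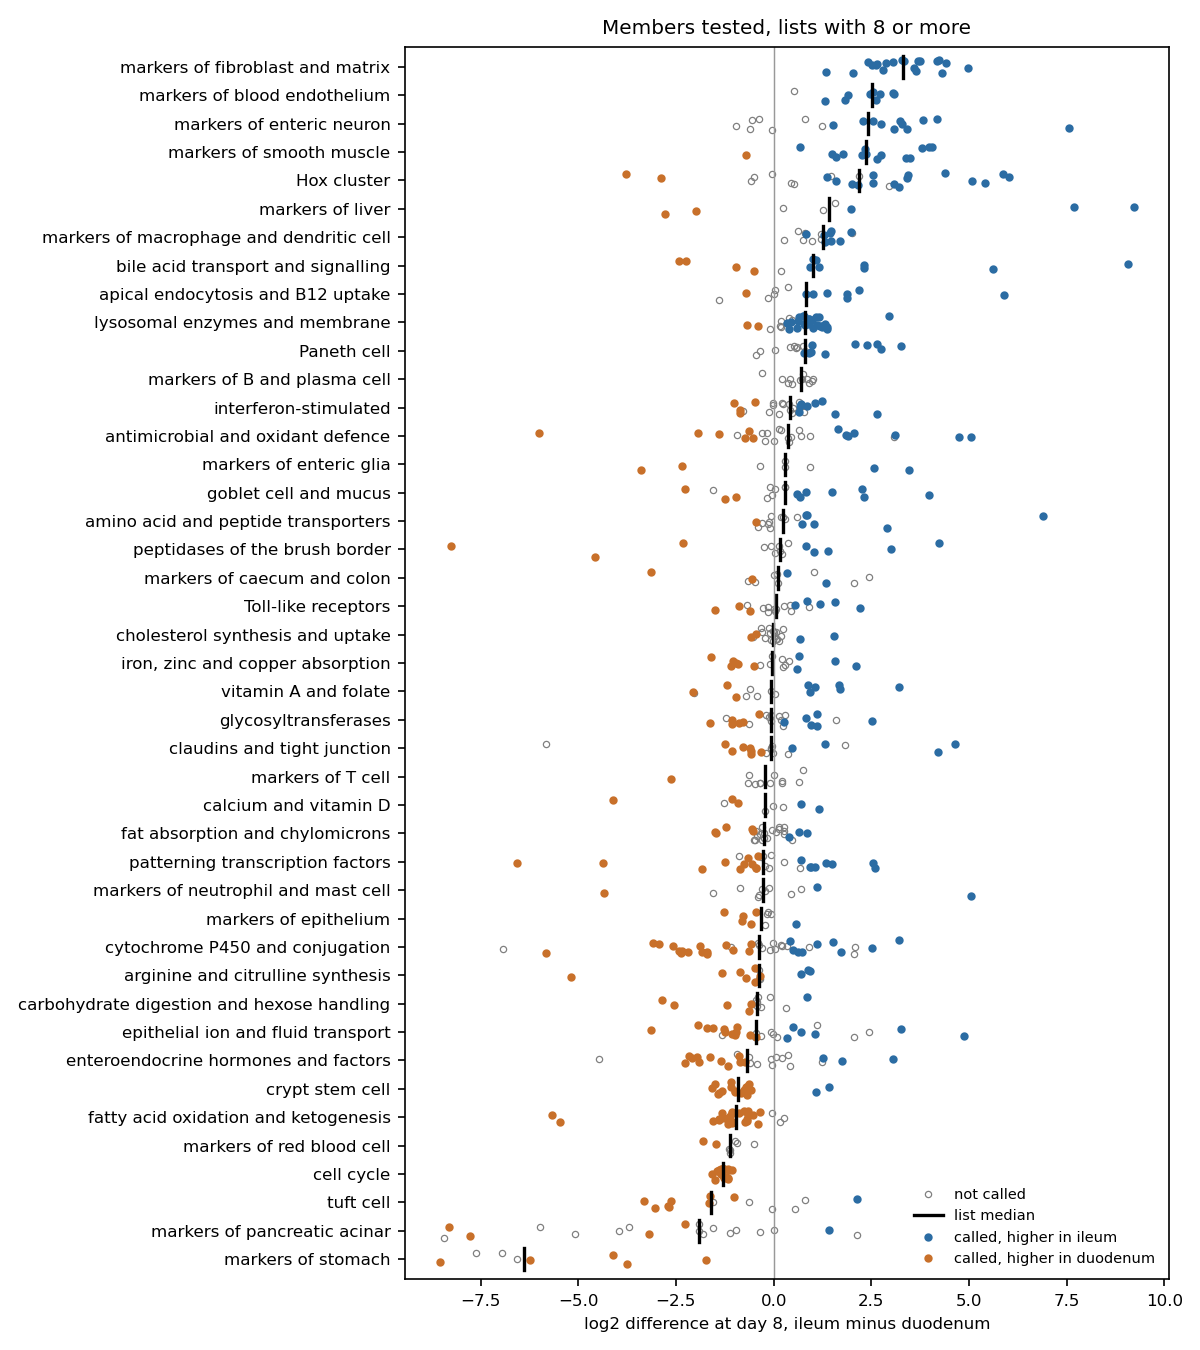
Log2 difference at day 8, ileum minus duodenum, of each tested member of the gene lists with 8 or more tested members. Filled points are called members, blue for a higher ileum and orange for a higher duodenum, open points are not called, and the black bar is the list median. Fibroblast and matrix markers head the plot with all points to the right of 0, all cell cycle genes lie to the left of 0, and stomach markers have the lowest median.

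The epithelial region factors separated the 2 tissues sharply. Pdx1 (chr5:147269959-147275848, plus strand, GRCm38), the homeodomain factor of foregut and duodenum, stood at 14.2, 14.2 and 14.1 CPM in the duodenum and 0.275, 0.0675 and 0.14 CPM in the ileum (log2 difference -6.56 ± 1.17 SE, adjusted p = 5.25e-05). Its antisense neighbour Plut, a long non-coding RNA whose annotated span overlaps that of Pdx1, followed at 3.94, 4.84 and 4.12 CPM in the duodenum and 0.0551, 0.0675 and 0 CPM in the ileum. Whether the counting used strand is not stated, so reads from the overlap cannot be assigned to either with certainty. Plut rested on 3 counts in the ileum against 596 in the duodenum, a ratio of 120 with a 95% interval of 40.8 to 583. Onecut2, a hepatocyte nuclear factor 6 relative, was at 286, 289.5 and 288 CPM in the duodenum and 15.6, 13 and 13.6 CPM in the ileum, and Gata4, the factor that keeps jejunal and duodenal identity, at 126, 124 and 121 CPM in the duodenum and 29.4, 39.4 and 36.1 CPM in the ileum (log2 difference -1.82 ± 0.31 SE, adjusted p = 2.04e-05). Both were higher in every duodenum sample.

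Among the 27 patterning factors tested of 31 listed, 8 were higher in the ileum, 11 in the duodenum and 8 were not called. With the epithelium scaling 10 were higher in the ileum and 4 in the duodenum, and the list median turned from -0.26 to 0.14. The 4 genes with the largest differences in favour of the duodenum under TMM were Pdx1, Onecut2, Gata4 and Onecut3. Hnf4a, a general enterocyte factor and the list member with the most counts, stood at 830.5 ± 13.1 CPM in the duodenum and 456 ± 53.5 CPM in the ileum (log2 difference -0.86 ± 0.12 SE, adjusted p = 1.12e-06). On the ileal side the epithelial factors Klf4, Prdm1 and Maf were higher. Klf4, a factor of differentiated cells, had 35.3, 35.3 and 35.7 CPM in the duodenum and 90.8, 89.5 and 122 CPM in the ileum. Prdm1, the repressor that holds the suckling state of the enterocyte, had 54.8, 56.6 and 58.3 CPM in the duodenum and 99.3, 129.6 and 122 CPM in the ileum (log2 difference 1.05 ± 0.18 SE, adjusted p = 1.89e-05). Nkx2-3 and Meis1, both of the mesenchyme, were also higher in the ileum, with log2 differences of 2.55 and 2.59. The fibroblast markers had the same direction, and a link between them was not tested.

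Hox genes lay on the ileal side. Of the 39 genes of the Hoxa, Hoxb, Hoxc and Hoxd clusters, 25 passed the low-count filter, 15 were higher in the ileum, 2 in the duodenum and 8 were not called. Since a gene at very low level in both regions does not pass, the 25 are not the whole family. The clusters lie on chromosome 6 (52155590 to 52260880), chromosome 11 (96194316 to 96368256), chromosome 15 (102921103 to 103036852) and chromosome 2 (74668310 to 74765142) of GRCm38. Hoxc8 gave the largest difference among those with a mean of at least 2 CPM, at 0.0862, 0.0423 and 0.0897 CPM in the duodenum and 4.79, 3.71 and 4.83 CPM in the ileum (log2 difference 5.87 ± 0.73 SE, adjusted p = 2.79e-07). Hoxb5 had 0.172, 0.233 and 0.157 CPM in the duodenum and 1.43, 2.13 and 2.53 CPM in the ileum, and Hoxc6 had 0, 0.0423 and 0.135 CPM in the duodenum and 1.43, 0.641 and 1.82 CPM in the ileum. Hoxd4 had 3 counts in the duodenum against 148 in the ileum, a ratio of 81.8 with a 95% interval of 27.5 to 401. The levels were low throughout, and the highest value of any Hox gene tested in a day 8 sample was 6.26 CPM, of Hoxa3 in the duodenum.

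**Figure D2:**
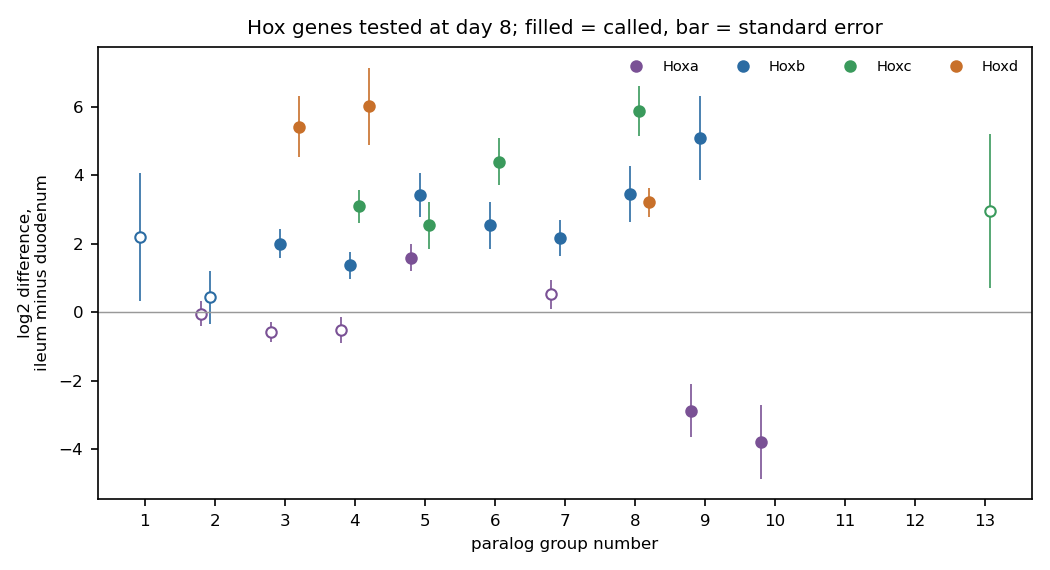
Log2 difference at day 8, ileum minus duodenum, with its standard error as a bar, for Hox genes that were tested, by their number within the cluster and coloured by cluster. Filled points are called. All filled points of the Hoxb, Hoxc and Hoxd clusters lie above 0, while Hoxa9 and Hoxa10 lie below it.

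The Hoxa cluster did not follow the other clusters. Hoxa9 was at 1.7, 0.888 and 0.897 CPM in the duodenum and 0.33, 0.0675 and 0.112 CPM in the ileum (log2 difference -2.89 ± 0.78 SE, adjusted p = 0.0028). Hoxa10 was at 0.625, 0.423 and 0.583 CPM in the duodenum and 0, 0.101 and 0 CPM in the ileum, with 75 counts in the duodenum and 3 in the ileum, a ratio of 15.1 with a 95% interval of 4.96 to 74.8. Both were higher in the duodenum, and no duodenum sample overlapped an ileum sample. Hoxa5 lay on the other side, at 0.689, 0.529 and 1.23 CPM in the duodenum and 2.59, 1.69 and 3.12 CPM in the ileum. Hoxa2, Hoxa3, Hoxa4 and Hoxa7 were not called, with log2 differences from -0.58 to 0.52.

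Bile acid recovery was the clearest absorptive difference. Bile acids enter the ileal enterocyte through the transporter Slc10a2, are carried by the binding protein Fabp6, leave through Slc51a and Slc51b, and activate the receptor Nr1h4, which switches on the hormone gene Fgf15. Of 13 genes of this circuit, 8 were higher in the ileum, 4 in the duodenum and 1 was not called, with a median log2 difference of 1.01. Under epithelium scaling 9 were higher in the ileum and 2 in the duodenum. Fabp6 (chr11:43596049-43601540, minus strand) stood at 0.0215, 0.0635 and 0.0673 CPM in the duodenum and 42.4, 17.4 and 27.7 CPM in the ileum (log2 difference 9.06 ± 1.25 SE, adjusted p = 4.18e-06). Fgf15 (chr7:144896531-144900953, plus strand) stood at 0.732, 2.22 and 1.77 CPM in the duodenum and 72.6, 84.5 and 73.9 CPM in the ileum (log2 difference 5.61 ± 0.78 SE, adjusted p = 2.62e-06). Nr1h4 had 72, 62.6 and 65.1 CPM in the duodenum and 139, 145 and 119.9 CPM in the ileum, and Slc51a had 84.3, 66.5 and 71 CPM in the duodenum and 132, 149.6 and 144 CPM in the ileum. In these 4 genes the regions did not overlap. The uptake transporter itself, Slc10a2, was low at this age, with 0.366, 0.233 and 0.202 CPM in the duodenum and 1.71, 1.18 and 1.26 CPM in the ileum (log2 difference 2.32 ± 0.74 SE, adjusted p = 0.012), and its partner Slc51b was not called, at 26.1 ± 2.04 CPM in the duodenum and 29.9 ± 5.08 CPM in the ileum.

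Abcc2, the apical pump for conjugated bile salts and drugs, had the most counts of that list, at 198, 217 and 221 CPM in the duodenum and 898, 1223 and 1029 CPM in the ileum. Slco2b1, an organic anion uptake carrier, and Abcc3, a basolateral efflux pump, were the members furthest on the duodenal side. Slco2b1 had 33.5, 30.8 and 35 CPM in the duodenum and 5.73, 6.21 and 6.43 CPM in the ileum, and Abcc3 had 40.3, 36.2 and 36.3 CPM in the duodenum and 7.6, 7.7 and 8.59 CPM in the ileum.

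**Figure D3:**
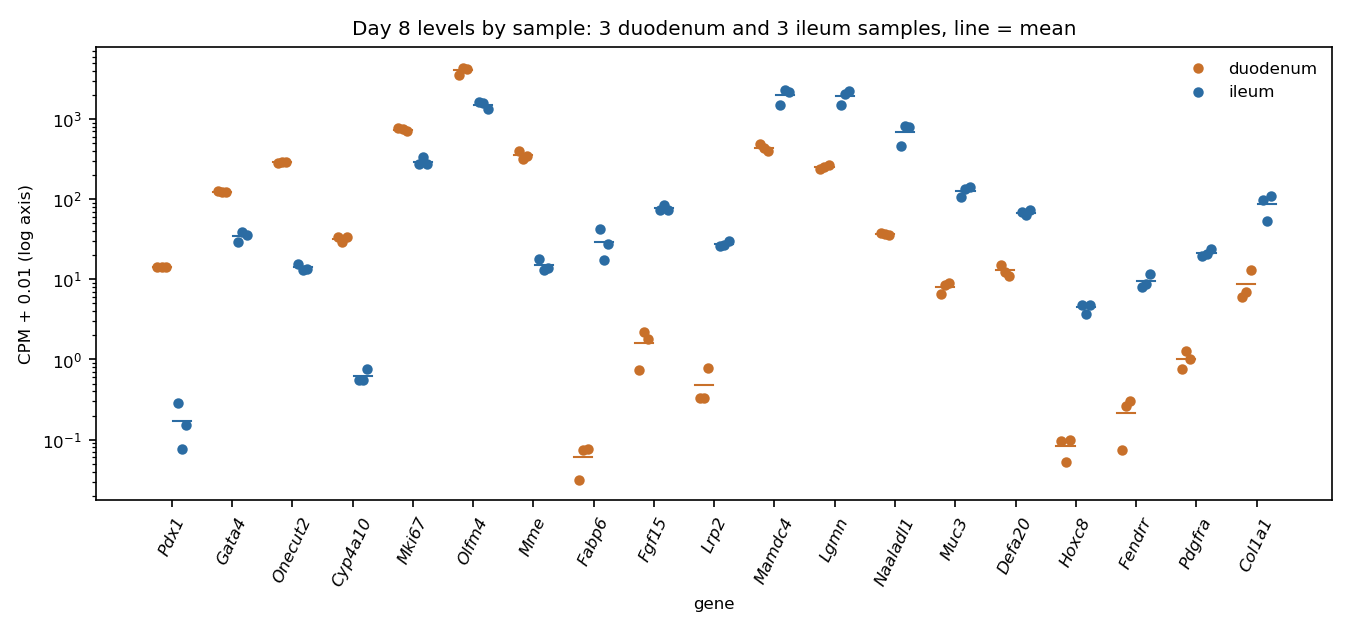
Level in CPM + 0.01 on a log axis of 19 genes in each of the 3 duodenum samples (orange) and 3 ileum samples (blue) of day 8, with the mean of each region as a line. The regions are apart for every gene drawn, which the rule for naming several of them required, and for 60.0% of all genes tested. The ileum values of Pdx1 run from 0.0675 to 0.275 CPM.

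Endocytosis genes of the suckling ileum were higher in the ileum for 7 of 13 members, higher in the duodenum for 1 and not called for 5, with a median of 0.82. Cubn, Amn, Lrp2 and Dab2 form the receptor and adaptor complex that takes up protein and vitamin B12 with its carrier. Lrp2, megalin, stood at 0.323, 0.317 and 0.762 CPM in the duodenum and 25.9, 27.1 and 30.3 CPM in the ileum (log2 difference 5.89 ± 0.55 SE, adjusted p = 6.79e-09). Cubn, cubilin, stood at 187, 164 and 159 CPM in the duodenum and 423, 754 and 687 CPM in the ileum (log2 difference 1.87 ± 0.25 SE, adjusted p = 6e-07), and Dab2 stood at 113, 122 and 138 CPM in the duodenum and 397, 502 and 475 CPM in the ileum. Mamdc4, the apical endosome protein endotubin, stood at 484, 433 and 399.9 CPM in the duodenum and 1477, 2322 and 2141 CPM in the ileum. In all 4 genes the lowest ileum sample exceeded the highest duodenum sample. Fcgrt, the neonatal Fc receptor that carries maternal IgG from milk across the gut, was the member higher in the duodenum, at 1656, 1523 and 1621 CPM in the duodenum and 807, 1031 and 1087 CPM in the ileum (log2 difference -0.71 ± 0.25 SE, adjusted p = 0.0205). With libraries scaled to epithelium markers, 9 members were higher in the ileum and none in the duodenum, so the Fcgrt call depended on the scaling. It also ended without duodenum sample 1, duodenum sample 3 or ileum sample 1 (adjusted p = 0.0503 to 0.0957).

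Lysosomal genes formed the broadest metabolic group on the ileal side. Of 35 enzymes and membrane proteins, 27 were higher in the ileum, 2 in the duodenum and 6 were not called, with a median of 0.81. Their summed level was 6057 to 6513 CPM in the duodenum and 10456 to 13517 CPM in the ileum, with the lowest ileum value in sample 1. Under epithelium scaling 32 were higher in the ileum and none in the duodenum. Lgmn, the asparagine-specific protease legumain, had the largest difference, at 235, 249.7 and 267 CPM in the duodenum and 1505, 2037 and 2242 CPM in the ileum (log2 difference 2.94 ± 0.46 SE, adjusted p = 8.21e-06). Galns, which removes sulfate from keratan sulfate, was at 34.8, 32.2 and 34.4 CPM in the duodenum and 58.5, 99.8 and 102 CPM in the ileum, and Ctsl, a broad-range cathepsin, at 558, 629 and 739 CPM in the duodenum and 1550, 1694 and 1699 CPM in the ileum. The differences of the other called members were smaller, the glycosidases Glb1 and Hexa lying at 1.00 and 1.23 on the log2 scale. Scarb2 and Ctsc were the members higher in the duodenum, at -0.68 and -0.41. Neither was called under epithelium scaling, and without duodenum sample 1 the adjusted p of Ctsc was 0.0619.

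Lysosomal genes share a promoter element, TCACGTGA, bound by the transcription factors of the TFEB family. It was searched in the 250 bases before the start of each gene as RefSeq gives it on GRCm38.p6. The element reads the same on both strands. Of the 35 genes 26 were matched, and the element was in 4, Ctsa, Ctsd, Gla and Mcoln1, while 0.907% of 27025 genes held it. All 4 were higher in the ileum, as were 27 of the 35 listed, so their direction was that of most of the list. Ctsd encodes cathepsin D, at 151 ± 7.08 CPM in the duodenum and 257 ± 43.6 CPM in the ileum (log2 difference 0.77 ± 0.21 SE, adjusted p = 0.00387). Mcoln1 encodes the lysosomal calcium channel mucolipin 1, at 48.1 ± 3.85 CPM and 90.5 ± 9.03 CPM (log2 difference 0.91 ± 0.15 SE, adjusted p = 1.6e-05). Both windows are shown to let the element be seen in place. That of Ctsd is chr7:142387828-142388077 on the minus strand and that of Mcoln1 is chr8:3500269-3500518 on the plus strand. They are written 5′ to 3′ with the element in capitals.
Ctsd: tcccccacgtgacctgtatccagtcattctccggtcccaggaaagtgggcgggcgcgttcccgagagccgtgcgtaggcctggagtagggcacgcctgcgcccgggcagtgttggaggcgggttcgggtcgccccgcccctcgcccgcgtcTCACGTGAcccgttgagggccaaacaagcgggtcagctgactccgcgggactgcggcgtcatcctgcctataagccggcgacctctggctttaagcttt
Mcoln1: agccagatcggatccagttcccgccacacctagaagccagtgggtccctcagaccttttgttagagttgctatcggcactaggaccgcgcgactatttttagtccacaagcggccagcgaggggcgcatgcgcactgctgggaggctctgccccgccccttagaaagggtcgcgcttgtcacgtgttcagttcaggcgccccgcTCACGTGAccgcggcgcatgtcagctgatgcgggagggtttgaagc
The element lies nearer the start site in Mcoln1 than in Ctsd. A match is a description of these letters and not a measured binding site.

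The brush border carried different peptidases in the 2 regions. Of 15 members tested, 5 were higher in the ileum, 3 in the duodenum and 7 were not called. Mme, neprilysin, stood at 399, 317 and 342 CPM in the duodenum and 17.9, 13 and 13.7 CPM in the ileum (log2 difference -4.57 ± 0.77 SE, adjusted p = 2.97e-05). Tmprss15, enteropeptidase, the protease that activates pancreatic trypsinogen, stood at 6.81, 5.33 and 2.4 CPM in the duodenum and 0.0551, 0 and 0 CPM in the ileum, with 675 counts against 1 and a ratio of 407 (95% interval 72.8 to 16102). Naaladl1 and Enpep, which trim acidic residues from peptides, went the other way. Naaladl1 stood at 38, 36.7 and 36 CPM in the duodenum and 460.4, 808 and 797 CPM in the ileum (log2 difference 4.22 ± 0.48 SE, adjusted p = 1.55e-07) and Enpep at 78.2, 75.9 and 70.0 CPM in the duodenum and 577, 643 and 568 CPM in the ileum (log2 difference 3.00 ± 0.27 SE, adjusted p = 1.13e-09). Anpep, aminopeptidase N, was not called at 0.17.

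Amino acid transporters were higher in the ileum for 6 of 17 members, in the duodenum for 1, and not called for 10. Under epithelium scaling 9 were higher in the ileum and none in the duodenum, and the single duodenal call was also lost without duodenum sample 1 or 2 or ileum sample 1 or 3. Slc6a14, a concentrating carrier for neutral and cationic amino acids, stood at 0, 0.0635 and 0.0897 CPM in the duodenum and 5.18, 7.36 and 6.77 CPM in the ileum (log2 difference 6.89 ± 1.11 SE, adjusted p = 1.63e-05). Slc7a15 stood at 0.754, 0.783 and 0.964 CPM in the duodenum and 4.57, 7.42 and 6.63 CPM in the ileum. The main brush border carrier of neutral amino acids, Slc6a19, was at 190.0 ± 10.9 CPM in the duodenum and 316 ± 33 CPM in the ileum (log2 difference 0.73 ± 0.22 SE, adjusted p = 0.00599), and the dipeptide carrier Slc15a1 was not called, at 0.19.

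Single genes of sugar handling differed widely. Of 14 genes, 5 were higher in the duodenum, 1 in the ileum and 8 were not called, under epithelium scaling the numbers were 3 and 2, and without duodenum sample 1 the duodenum count was 3. Treh, trehalase, was at 14.9, 12.9 and 15.9 CPM in the duodenum and 2.15, 1.92 and 2.02 CPM in the ileum (log2 difference -2.85 ± 0.42 SE, adjusted p = 5.12e-06). Slc2a5, the fructose transporter, was at 23.2, 16 and 19.3 CPM in the duodenum and 2.75, 3.44 and 3.68 CPM in the ileum, and Khk, which phosphorylates fructose, was at 41.9, 39 and 43.5 CPM in the duodenum and 21, 16.7 and 17.1 CPM in the ileum (log2 difference -1.19 ± 0.25 SE, adjusted p = 0.000305). Mgam, maltase-glucoamylase, was the member higher in the ileum, at 371, 370.5 and 343 CPM in the duodenum and 586, 715 and 651 CPM in the ileum. Lct, lactase, the enzyme of milk sugar digestion, did not pass the test at 1079, 951 and 919.9 CPM in the duodenum and 554, 883 and 817 CPM in the ileum (log2 difference -0.39 ± 0.47 SE, adjusted p = 0.518). Its samples did not overlap between the regions, but the difference was within the error of the fit.

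Fat absorption genes were divided. Of 26 genes, 5 were higher in the duodenum, 3 in the ileum and 18 were not called. Under epithelium scaling 8 were higher in the ileum and 2 in the duodenum, and the median turned from -0.25 to 0.15. The ileum count was 1 without duodenum sample 2 or 3 or ileum sample 2 and 0 without ileum sample 3, and the duodenum count was 3 with size factors of relative log expression (RLE) in place of TMM and without duodenum sample 1 or 2 or ileum sample 3. Scarb1, a lipoprotein and cholesterol receptor, was at 18.1, 17.8 and 17.1 CPM in the duodenum and 5.89, 6.58 and 6.51 CPM in the ileum, and Cd36, a fatty acid translocase, at 90.8, 83.7 and 94.8 CPM in the duodenum and 40.6, 26.4 and 28.6 CPM in the ileum. Npc1l1, the cholesterol uptake protein, was at 178, 164 and 171 CPM in the duodenum and 228, 344 and 348 CPM in the ileum. Without ileum sample 3 the adjusted p of Npc1l1 was 0.0577. Apoa4, an apolipoprotein of chylomicrons and the gene with the most counts in the list, was not called at 15380, 13430 and 14310 CPM in the duodenum and 9582, 10520 and 11340 CPM in the ileum (log2 difference -0.46 ± 0.37 SE, adjusted p = 0.321). Of 21 genes of cholesterol synthesis and uptake, 2 were called in each direction. Under epithelium scaling 7 were higher in the ileum and none in the duodenum, and the median turned from -0.01 to 0.38. The duodenum count was 0 without duodenum sample 1 or 2 or ileum sample 3 and 1 without ileum sample 1, and the ileum count was 1 without duodenum sample 2 or 3 or ileum sample 1 or 2.

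Oxidation of fatty acids differed much more than their absorption. Of 26 genes tested of 27 listed, 23 were higher in the duodenum, none in the ileum and 3 were not called, with a median of -0.97. Their summed level was 6370 to 6945 CPM in the duodenum and 3342 to 3662 CPM in the ileum. Under epithelium scaling 14 were higher in the duodenum and 3 in the ileum. Cpt2, which completes entry of fatty acids into mitochondria, was at 119, 103 and 112 CPM in the duodenum and 39.1, 53.6 and 45.9 CPM in the ileum (log2 difference -1.26 ± 0.13 SE, adjusted p = 1.14e-08), and Hadha, of the trifunctional oxidation enzyme, at 689, 627 and 627 CPM in the duodenum and 302, 348 and 279 CPM in the ileum.

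Cyp4a10, which oxidises the far end of fatty acids and is a known target of the receptor Ppara, gave the largest difference of that list, at 33.7, 28.9 and 33.9 CPM in the duodenum and 0.551, 0.54 and 0.758 CPM in the ileum (log2 difference -5.67 ± 0.61 SE, adjusted p = 5.22e-08). The Cyp4a genes are near-identical copies, so their estimated counts depend on how shared reads were divided. Ppara itself was at 14.7, 17.2 and 17.1 CPM in the duodenum and 8.48, 12.8 and 9.83 CPM in the ileum (log2 difference -0.65 ± 0.19 SE, adjusted p = 0.00598).

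Arginine synthesis, the pathway by which the newborn gut makes citrulline and arginine for the body, had 7 of 13 genes higher in the duodenum, 3 higher in the ileum and 3 not called. Under epithelium scaling 2 were higher in the duodenum and 3 in the ileum, and the median turned from -0.38 to 0.02. Arg2, mitochondrial arginase, was at 8.38, 6.26 and 8 CPM in the duodenum and 0.275, 0.203 and 0.168 CPM in the ileum (log2 difference -5.18 ± 0.71 SE, adjusted p = 1.97e-06). Cps1, carbamoyl phosphate synthetase, was at 4324, 4201 and 4089 CPM in the duodenum and 2559, 2904 and 2297 CPM in the ileum. The last enzymes of the pathway lay on the other side, with Ass1 at 0.70 and Asl at 0.93. The call of Ass1 ended when any of duodenum samples 2 and 3 or ileum samples 2 and 3 was left out (adjusted p = 0.0547 to 0.0741).

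Metal and calcium uptake lists were divided, with large differences in a few genes. Of 17 genes of iron, zinc and copper handling, 6 were higher in the duodenum, 4 in the ileum and 7 were not called, and under epithelium scaling none was higher in the duodenum and 7 in the ileum. That list's median turned from -0.05 to 0.34. The duodenum count was 1 without duodenum sample 1 or 3 or ileum sample 2, 2 without ileum sample 1 or 3, and 2 with RLE. Cybrd1, the duodenal iron reductase, was at 37.3, 35.8 and 35.1 CPM in the duodenum and 20.2, 14.5 and 18.3 CPM in the ileum (log2 difference -1.03 ± 0.43 SE, adjusted p = 0.0487), whereas the iron importer Slc11a2 and the exporter Slc40a1 were not called, at 0.29 and 0.25. The Cybrd1 call ended when any 1 of the 6 samples was left out (adjusted p = 0.0642 to 0.153). With only the day 8 groups fitted, Slc11a2 (0.39, edgeR adjusted p = 0.0243) and Slc40a1 (0.35, adjusted p = 0.0127) were called higher in the ileum. Meltf, melanotransferrin, an iron-binding membrane protein, was at 409, 384 and 423 CPM in the duodenum and 1294, 2036 and 1952 CPM in the ileum (log2 difference 2.12 ± 0.62 SE, adjusted p = 0.00624). Of 9 calcium and vitamin D genes, whose median turned from -0.23 to 0.21 under epithelium scaling, 2 were higher in the ileum (1 when any sample other than ileum sample 1 was left out) and 3 were higher in the duodenum, with Trpv6, the apical calcium channel, at 2.48, 3.3 and 1.97 CPM in the duodenum and 0.22, 0.135 and 0.112 CPM in the ileum, and Vdr, the vitamin D receptor, at 131, 132 and 137 CPM in the duodenum and 59.4, 74.8 and 78.5 CPM in the ileum. Of 15 vitamin A and folate genes, 6 were higher in the ileum and 3 in the duodenum. Under epithelium scaling the numbers were 7 and 2, and the median turned from -0.06 to 0.33. Rdh7, a retinol dehydrogenase, was at -2.06, and the retinoic acid degrading enzyme Cyp26b1 was at 0.0646, 0.233 and 0.135 CPM in the duodenum and 1.05, 1.35 and 1.68 CPM in the ileum, on the ileal side.

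Cell division genes were higher in the duodenum without exception. All 20 cell cycle genes were called, each with a difference above 2-fold, and the median was -1.30. All 20 were also called higher in the duodenum when libraries were scaled to epithelium markers. Their summed level was 3147 to 3391 CPM in the duodenum and 1179 to 1443 CPM in the ileum. Mki67, the proliferation antigen, stood at 763, 741 and 705 CPM in the duodenum and 274, 332 and 277 CPM in the ileum (log2 difference -1.32 ± 0.23 SE, adjusted p = 1.93e-05). Tyms, thymidylate synthase, had the largest difference, at 151, 162 and 135 CPM in the duodenum and 58.8, 52 and 40.1 CPM in the ileum (log2 difference -1.57 ± 0.19 SE, adjusted p = 1.53e-07), and Pcna, the polymerase clamp, the smallest, at 238, 236 and 229.9 CPM in the duodenum and 142, 103 and 91.7 CPM in the ileum. DNA replication and mitosis genes moved alike, with Mcm5 at -1.51 and Plk1 at -1.46 on the log2 scale.

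Crypt stem cell genes followed. Of 18, the duodenum was higher for 16 and the ileum for 2, with a median of -0.90. Under epithelium scaling 7 were higher in the duodenum and 2 in the ileum. Olfm4, a secreted stem cell marker, was at 3511, 4368 and 4238 CPM in the duodenum and 1630, 1572 and 1314 CPM in the ileum (log2 difference -1.42 ± 0.23 SE, adjusted p = 7.67e-06). Lgr5, the receptor that defines crypt base stem cells, was at 84.7, 106 and 102 CPM in the duodenum and 54, 71.7 and 69.2 CPM in the ileum (log2 difference -0.58 ± 0.23 SE, adjusted p = 0.0337). The Lgr5 call ended under epithelium scaling (adjusted p = 0.527) and when any sample other than duodenum sample 1 was left out (adjusted p = 0.0517 to 0.139). Cdca7 and Prom1 were at -1.50 and -1.58. Nrn1 and Tnfrsf19 were the members higher in the ileum, at 1.08 and 1.42.

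Cell cycle promoters carry CCAAT boxes, and those of mitotic genes also a cell cycle homology region, TTTGAA. In the 250 bases before the start, CCAAT was found on either strand in 15 of the 17 cell cycle genes matched and in 37.5% of 27025 genes, and TTTGAA in 5 of 17 and in 18.3%. The promoters of Cdk1 and Ccnb2 are shown because both genes drive mitosis and hold the letters of both elements. Cdk1, the mitotic kinase, was at 83.3, 91.3 and 78.1 CPM in the duodenum and 43.1, 31.7 and 25 CPM in the ileum, and Ccnb2, a cyclin that activates it, at 60.7, 57.8 and 58.5 CPM in the duodenum and 26.5, 23.9 and 19.4 CPM in the ileum. Their windows are chr10:69352913-69353162 and chr9:70421555-70421804, both on the minus strand, from RefSeq on GRCm38.p6. CCAAT, its complement ATTGG and TTTGAA are in capitals.
Cdk1: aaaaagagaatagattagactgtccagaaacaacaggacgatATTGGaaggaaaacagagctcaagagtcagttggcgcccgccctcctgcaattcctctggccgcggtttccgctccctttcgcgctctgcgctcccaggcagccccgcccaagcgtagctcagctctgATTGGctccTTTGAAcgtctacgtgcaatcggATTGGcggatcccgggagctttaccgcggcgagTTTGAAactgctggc
Ccnb2: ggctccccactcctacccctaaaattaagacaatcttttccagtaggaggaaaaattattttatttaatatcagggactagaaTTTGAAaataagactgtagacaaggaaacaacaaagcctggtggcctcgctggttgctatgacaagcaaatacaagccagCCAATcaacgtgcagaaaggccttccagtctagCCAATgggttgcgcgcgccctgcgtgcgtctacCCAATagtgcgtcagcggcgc
In Cdk1 the 3 CCAAT boxes are on the opposite strand, and in Ccnb2 all 3 are on the strand shown. The copies do not overlap each other. In Ccnb2 the TTTGAA lies farther from the start than all 3 CCAAT boxes, unlike the last TTTGAA of Cdk1. These matches describe letters and are not measured binding sites.

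The secretory lineages did not share a direction. Goblet cell genes were higher in the ileum for 7 of 17 and in the duodenum for 3. Muc2, the gel-forming mucin, was at 110.1, 135 and 117 CPM in the duodenum and 393, 522 and 884 CPM in the ileum (log2 difference 2.31 ± 0.31 SE, adjusted p = 1.03e-06), and Muc3, a membrane mucin, at 6.48, 8.59 and 9.08 CPM in the duodenum and 105, 132 and 141 CPM in the ileum (log2 difference 3.97 ± 0.33 SE, adjusted p = 5.02e-10). Zg16, a lectin that binds bacteria in mucus, was on the duodenal side at 17, 13.4 and 14 CPM in the duodenum and 4.57, 1.86 and 2.98 CPM in the ileum.

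Paneth cell genes were higher in the ileum for 10 of 19 and in the duodenum for none, with a median of 0.81. Their sum was 504.7 to 595.6 CPM in the duodenum and 924.0 to 1372 CPM in the ileum, the highest value being ileum sample 1. Guca2a, guanylin, was at 22.5, 24.3 and 24 CPM in the duodenum and 217, 224 and 240.1 CPM in the ileum (log2 difference 3.27 ± 0.30 SE, adjusted p = 2.71e-09), and the defensin genes Defa21 and Defa22 were at 2.76 and 2.66. Defensin genes are near-identical copies, so their separate values depend on how reads were divided among them. Defa24 was not called at 240.2, 259 and 204 CPM in the duodenum and 512, 246 and 304 CPM in the ileum, and neither was Lyz1, lysozyme, at 0.58. Without ileum sample 2 Defa24 was called (adjusted p = 0.025).

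Hormone genes of enteroendocrine cells split by region. Of 26, 11 were higher in the duodenum, 3 in the ileum and 12 were not called. Under epithelium scaling the numbers were 8 and 4. The duodenal hormones Cck, Gip and Ghrl were higher in the duodenum, with Gip at 82.8, 79.8 and 90.2 CPM in the duodenum and 24.1, 20.4 and 20.5 CPM in the ileum (log2 difference -1.96 ± 0.42 SE, adjusted p = 0.000393) and Cck at 36.6, 30.7 and 35.3 CPM in the duodenum and 10.1, 6.18 and 7.92 CPM in the ileum. Neurog3, the factor that starts enteroendocrine fate, was at 4.95, 6.16 and 5.18 CPM in the duodenum and 0.881, 1.11 and 1.35 CPM in the ileum. The 3 higher in the ileum were the distal hormones Nts, Pyy and Gcg. Nts, neurotensin, was at 25.2, 22.7 and 32.2 CPM in the duodenum and 292, 143 and 229 CPM in the ileum (log2 difference 3.05 ± 0.42 SE, adjusted p = 1.82e-06), and Pyy, peptide YY, at 4.7, 4 and 3.43 CPM in the duodenum and 12.2, 12.6 and 15.6 CPM in the ileum. Tuft cell genes were higher in the duodenum for 8 of 14 and in the ileum for 1, with Avil at 2.91, 2.86 and 2.71 CPM in the duodenum and 0.441, 0.304 and 0.309 CPM in the ileum and the tuft cell master factor Pou2f3 at 1.4, 1.42 and 1.41 CPM in the duodenum and 0.441, 0.338 and 0.561 CPM in the ileum. The exception was Ptgs1, at 2.12. Under epithelium scaling 6 tuft cell genes were higher in the duodenum and 2 in the ileum.

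Ion and fluid transport genes were higher in the duodenum for 12 of 28 and in the ileum for 6. Under epithelium scaling the numbers were 9 and 8, with a median of -0.07 against -0.46. Aqp8, a water channel, was at 67, 49.4 and 62.2 CPM in the duodenum and 8.21, 4.72 and 7.27 CPM in the ileum (log2 difference -3.15 ± 0.41 SE, adjusted p = 9.24e-07), and Slc9a3, the apical sodium-proton exchanger, at 117, 104 and 109.7 CPM in the duodenum and 35.5, 37.6 and 39.9 CPM in the ileum. Cftr, the chloride channel of crypts, was at 228, 233 and 233 CPM in the duodenum and 119, 126 and 111 CPM in the ileum. Slc5a8, a sodium-coupled carrier of short-chain fatty acids, went furthest the other way, at 1.42, 1.86 and 1.34 CPM in the duodenum and 35.9, 51.4 and 48.4 CPM in the ileum (log2 difference 4.87 ± 0.85 SE, adjusted p = 4.72e-05). Among 19 claudins and junction proteins, the duodenum was higher for 7 and the ileum for 4. The pore-forming Cldn2 and Cldn15 were higher in the duodenum, at 535, 527 and 511 CPM in the duodenum and 242, 275 and 236 CPM in the ileum for Cldn2 and -1.25 for Cldn15 on the log2 scale. Cldn8, a sealing claudin, was higher in the ileum at 1.79, 2.39 and 1.48 CPM in the duodenum and 41.7, 51.7 and 49.5 CPM in the ileum (log2 difference 4.66 ± 0.41 SE, adjusted p = 1.95e-09). Under epithelium scaling the counts were 3 in the duodenum and 8 in the ileum, and the list median turned from -0.08 to 0.32. Glycosyltransferase genes split evenly, with 6 of 23 called in each direction, and 10 in the ileum against 3 in the duodenum under epithelium scaling, where the median turned from -0.06 to 0.34. Without ileum sample 1 the duodenum count was 3. B4galnt1, of ganglioside synthesis, was on the duodenal side at -1.62 and St8sia1, a sialyltransferase, on the ileal side at 2.52.

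Drug and foreign compound metabolism had 16 of 39 genes higher in the duodenum and 9 higher in the ileum. Under epithelium scaling the numbers were 12 and 11, and the median turned from -0.36 to 0.04. Cyp2d26 was at 74.8, 57.9 and 58.6 CPM in the duodenum and 8.43, 6.31 and 7.75 CPM in the ileum (log2 difference -3.09 ± 0.48 SE, adjusted p = 9.33e-06), and Cyp3a11, of the main drug-oxidising family, at 9.65, 8.69 and 8.52 CPM in the duodenum and 1.21, 0.911 and 1.38 CPM in the ileum. On the ileal side the conjugating enzyme Ugt2b36 was at 4.89, 4.89 and 4.44 CPM in the duodenum and 18.8, 13 and 15.1 CPM in the ileum.

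Antimicrobial and oxidant defence genes were divided, with 7 of 27 higher in the ileum, 6 in the duodenum and 14 not called. Under epithelium scaling 10 were higher in the ileum and 3 in the duodenum. Reg1 was at 35.1, 34.2 and 41.7 CPM in the duodenum and 1.05, 0.203 and 0.618 CPM in the ileum (log2 difference -6.00 ± 1.43 SE, adjusted p = 0.00123). Pigr, the receptor that carries IgA into the gut lumen, was at 1282, 1257 and 1276 CPM in the duodenum and 333, 338 and 329.8 CPM in the ileum (log2 difference -1.93 ± 0.31 SE, adjusted p = 1.16e-05). Reg3b, a lectin that kills bacteria, was on the ileal side at 1.01, 0.698 and 1.17 CPM in the duodenum and 7.99, 5.77 and 10.9 CPM in the ileum. Of 19 Toll-like receptor genes and partners, 5 were higher in the ileum and 3 in the duodenum. Under epithelium scaling the numbers were 7 and 1. Tlr4, the receptor for bacterial lipopolysaccharide, was at 0.237, 0.317 and 0.247 CPM in the duodenum and 0.881, 1.55 and 1.26 CPM in the ileum (log2 difference 2.20 ± 0.48 SE, adjusted p = 0.000329), and Tlr3, which senses viral RNA, was at 11.8, 16.7 and 12.4 CPM in the duodenum and 4.85, 4.29 and 5.31 CPM in the ileum (log2 difference -1.50 ± 0.30 SE, adjusted p = 0.000179). Tlr4 had the same direction as the connective tissue and vessel markers, and a link between them was not tested. Interferon-stimulated genes were higher in the ileum for 8 of 25 and in the duodenum for 4. Under epithelium scaling they were 12 and none, and without ileum sample 2 the duodenum count was 2. Iigp1, an interferon-induced GTPase, was at 0.302, 0.656 and 0.336 CPM in the duodenum and 2.75, 2.43 and 2.98 CPM in the ileum, and Ifit2 was on the duodenal side at 73.7, 83.2 and 91.3 CPM in the duodenum and 42.8, 40.5 and 40.5 CPM in the ileum. The Ifit2 call ended under epithelium scaling (adjusted p = 0.203) and without duodenum sample 3, ileum sample 2 or ileum sample 3 (adjusted p = 0.056 to 0.0624).

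Some of the largest differences fell outside those lists or in genes better known from other organs. C8b, of the terminal complement complex, was at 16.6, 14.2 and 14.5 CPM in the duodenum and 0.33, 0.338 and 0.225 CPM in the ileum (log2 difference -5.68 ± 0.43 SE, adjusted p = 4.16e-11). Adh6a, an alcohol dehydrogenase, was at 41.4, 23.2 and 28.8 CPM in the duodenum and 1.71, 0.506 and 0.702 CPM in the ileum. Sfrp5, a secreted Wnt inhibitor, was at 23.7, 26.5 and 32.5 CPM in the duodenum and 0.826, 0.675 and 0.898 CPM in the ileum (log2 difference -5.10 ± 0.42 SE, adjusted p = 1.99e-10), and Ky was at 5, 4.38 and 4.46 CPM in the duodenum and 0.0551, 0.27 and 0.197 CPM in the ileum. On the ileal side, Fga and Fgb, the alpha and beta chains of fibrinogen and classical liver products, were both high. Fga was at 0.0215, 0.0635 and 0.0224 CPM in the duodenum and 6.17, 10 and 8.45 CPM in the ileum (log2 difference 7.70 ± 0.54 SE, adjusted p = 4.16e-11). Fgb had 1 count in the duodenum against 541 in the ileum, a ratio of 897 with a 95% interval of 160 to 35498. Alb, albumin, the defining liver marker, did not follow them, and was the higher in the duodenum at very low counts, with a ratio of 7.24 (95% interval 2.29 to 36.7). Serpina1a, another liver product, was higher in the duodenum at 89.4, 81.2 and 88.6 CPM in the duodenum and 24.4, 20.5 and 20.6 CPM in the ileum. Of the 8 liver markers tested 3 were higher in the ileum and 2 in the duodenum.

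Other genes of large ileal excess were Scd2, a fatty acid desaturase, at 2.24, 4.38 and 2.83 CPM in the duodenum and 134, 257 and 228 CPM in the ileum (log2 difference 6.03 ± 0.51 SE, adjusted p = 1.17e-09), and Rarres1, a retinoic acid responsive gene, at 0.0431, 0.0211 and 0.0224 CPM in the duodenum and 11.5, 13.2 and 22.5 CPM in the ileum (log2 difference 8.92 ± 0.83 SE, adjusted p = 3.97e-09). Abca13, a lipid transporter family member, was at 0.215, 0.233 and 0.314 CPM in the duodenum and 8.37, 15.5 and 12 CPM in the ileum. Cysltr1, the receptor for cysteinyl leukotrienes, was at 0.474, 0.254 and 0.202 CPM in the duodenum and 11.7, 14.4 and 8.9 CPM in the ileum. Fendrr, a long non-coding RNA transcribed beside the mesenchymal factor Foxf1, was at 0.0646, 0.254 and 0.291 CPM in the duodenum and 8.04, 8.71 and 11.5 CPM in the ileum (log2 difference 5.52 ± 0.50 SE, adjusted p = 1.36e-09). The fibroblast list, which had the same direction as Fendrr, holds Foxf1, at 0.388, 0.571 and 0.852 CPM in the duodenum and 7.54, 6.55 and 9.57 CPM in the ileum. In each of these genes the ileum samples all exceeded the duodenum samples, which the rule for naming them required of all but Foxf1.

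The regional difference at day 8 was then compared with those at day 2, week 2 and week 4, by testing the change in the log2 difference itself. Against day 2, 4411 genes (20.4%) changed, of which 1577 (7.30%) had a greater ileum-over-duodenum difference at day 8 and 2834 (13.1%) a smaller one. The difference carries its sign, so for a gene higher in the duodenum a smaller value can mean a wider gap. Against week 2 there were 158 genes (0.731%), 58 greater and 100 smaller, and against week 4 there were 2673 (12.4%), 1188 (5.50%) greater and 1485 (6.87%) smaller. These counts moved with the set of samples fitted, more so than the day 8 count did. Against day 2, the count was 2140 without duodenum day 8 sample 1, 2586 without duodenum day 8 sample 2, 2827 without ileum day 8 sample 3, 2920 and 2748 without duodenum day 2 samples 2 and 3, and 2008 without ileum day 2 sample 3. Against week 4 it was 1701 and 1659 without duodenum day 8 samples 1 and 2. Against week 2 it fell below 100 when any 1 of 11 of the 12 samples was left out, with values from 11 to 92, and was 167 without ileum day 8 sample 2. With RLE size factors, the share with a greater difference went from 35.8% to 47.5% against day 2 and from 36.7% to 55.7% against week 2.

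Connective tissue and vessel markers were among the genes whose difference was greater at day 8 than at day 2. The difference was greater at day 8 for 17 of 20 fibroblast markers, all 10 of blood endothelium, 6 of 7 of lymphatic endothelium and 8 of 15 of smooth muscle, and smaller for none of these. The shares of all genes to set beside these counts are 7.30% and 13.1%. The smooth muscle count was 12 without ileum day 8 sample 2. The fibroblast sum of the duodenum was 233.2 to 297.9 CPM at day 2 and 38.15 to 100 CPM at day 8, while that of the ileum was 179.0 to 339.7 CPM and 340.2 to 663.6 CPM. The regions therefore overlapped at day 2 and did not at day 8. Pdgfra stood at 22.1 ± 4.7 CPM in the duodenum and 17.7 ± 4.02 CPM in the ileum of day 2, and its difference was greater at day 8 by 4.72 on the log2 scale (adjusted p = 3.05e-07). Fendrr was at 9.07 ± 2 CPM and 5.52 ± 1.32 CPM at day 2, with a change of 6.23 on the log2 scale (adjusted p = 3.05e-07). Col18a1, a basement membrane collagen, was at 23.1 ± 4.33 CPM and 15.1 ± 2.7 CPM, with a change of 3.30 on the log2 scale (adjusted p = 1.5e-06). Of 25 Hox genes 9 had a greater difference at day 8 and none a smaller one, as had 10 of 25 interferon-stimulated genes. The interferon count was 4 without duodenum day 2 sample 1, 5 without duodenum day 2 sample 3 or ileum day 2 sample 2, and 6 without duodenum day 8 sample 1 or 3 or ileum day 8 sample 3.

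**Figure D4:**
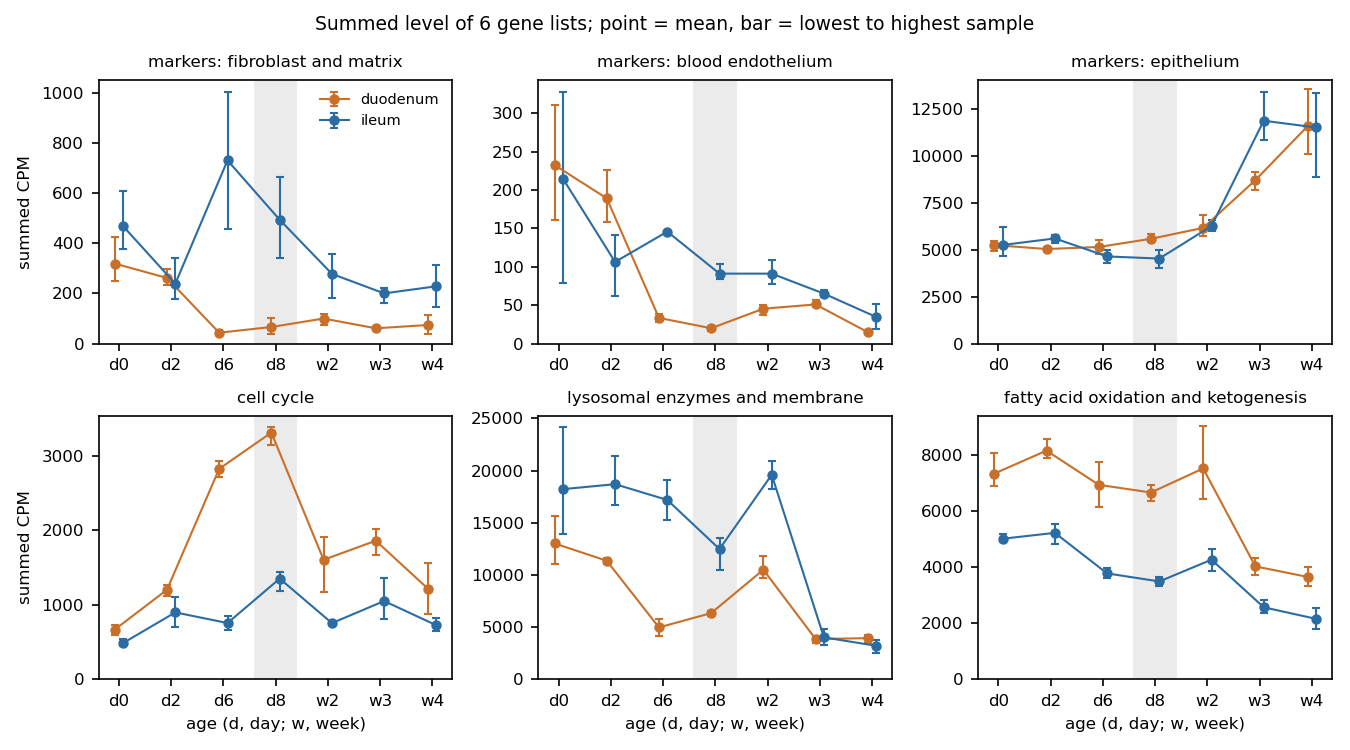
Summed level in CPM of 6 gene lists against age, for the duodenum (orange) and the ileum (blue), with the mean as a point, the lowest to highest sample as a bar and day 8 shaded. Ages run from birth to week 4 without day 4, and day 6 has 2 samples per region. The fibroblast sums overlap at day 2 and are apart at day 8, where the duodenum lies between 38.15 and 100 CPM and the ileum between 340.2 and 663.6 CPM.

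Cell cycle genes gave calls in the opposite sense, which depended on single samples. For 13 of the 20, the signed ileum-over-duodenum difference was smaller at day 8 than at day 2, and for none greater. Smaller here means shifted toward the duodenum, where all 20 were higher at day 8. The 13 fell to 5 or fewer when any 1 of 10 of the 12 samples was left out, being 0 without ileum day 2 sample 3, and were 12 and 10 without ileum day 2 sample 2 and ileum day 8 sample 1. With RLE size factors 7 were called. Their sum in the duodenum was 1121 to 1267 CPM at day 2 and 3147 to 3391 CPM at day 8, and in the ileum 704.5 to 1097 CPM and 1179 to 1443 CPM. The duodenum sums lay above the ileum sums at both ages. The lysosomal list was compared with week 4, after weaning. Of its 35 genes 25 had a greater difference at day 8 and 1 a smaller one, beside 5.50% and 6.87% of all genes. The lysosomal sum at week 4 was 3419 to 4224 CPM in the duodenum and 2490 to 3710 CPM in the ileum, so the regions overlapped at that age.

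Against week 4, the interferon-stimulated list had 16 of 25 genes with a greater difference at day 8 and none with a smaller one, and drug metabolism had 14 of 39 greater and 1 smaller. Lgals3, galectin 3, was at 11.1, 12.8 and 13.2 CPM in the duodenum and 63.3, 56.8 and 73.6 CPM in the ileum at day 8 and at 289.6 ± 17.3 CPM and 200 ± 48.7 CPM at week 4, a change in the difference of 2.92 on the log2 scale (adjusted p = 1.73e-07). Akr1c19, an aldo-keto reductase, was at 97, 82.1 and 97 CPM in the duodenum and 165, 133 and 111 CPM in the ileum at day 8 and at 101 ± 46.6 CPM and 14.4 ± 2.36 CPM at week 4, a change of 3.38 on the log2 scale (adjusted p = 1.73e-07). Ugt1a9, a glucuronosyltransferase that shares most of its exons with its neighbours in the Ugt1a locus, was at 5.06, 4.15 and 5.69 CPM in the duodenum and 8.98, 16.8 and 14.1 CPM in the ileum at day 8 and at 14.1 ± 7.49 CPM and 1.51 ± 0.868 CPM at week 4. In these 3 genes the ileum stood above the duodenum at day 8 and below it at week 4. Akr1c19 differed by only 0.57 on the log2 scale at day 8 (edgeR adjusted p = 0.0437). That day 8 call ended when any day 8 sample other than ileum sample 3 was left out (adjusted p = 0.0599 to 0.22). It also ended with all 48 samples (0.136) and with no low-count filter (0.132). Fgf15 was at 0.00883 ± 0.0153 CPM in the duodenum and 65.4 ± 48.3 CPM in the ileum of week 4. The smallest p-values against week 2 belonged to Ppef1, Zswim9 and Akr1b8. Ppef1, a calcium-binding phosphatase gene, was at 0.28, 0.402 and 0.291 CPM in the duodenum and 6.55, 8.03 and 10 CPM in the ileum at day 8 and at 3.04 ± 1.55 CPM in the duodenum and 1.02 ± 0.579 CPM in the ileum of week 2.

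**Figure D5:**
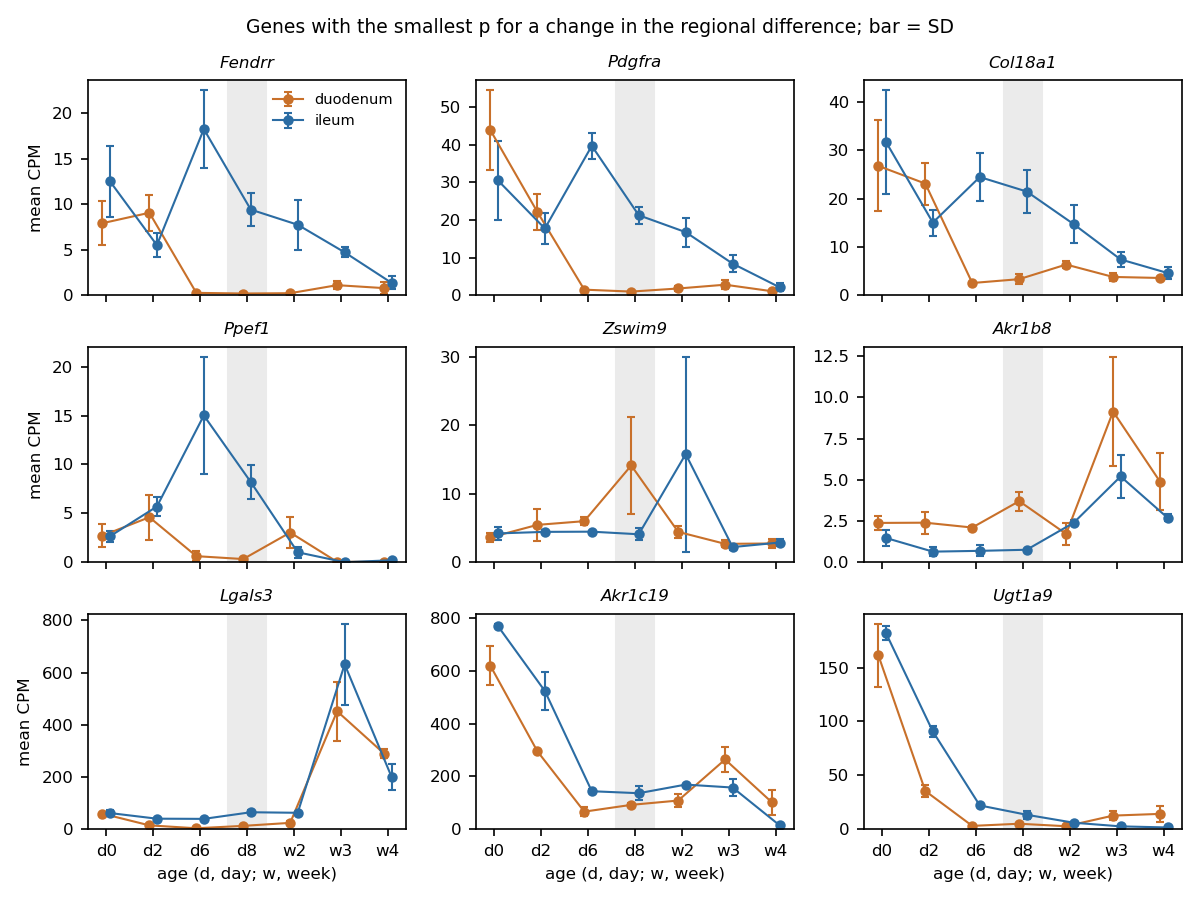
Mean level in CPM against age, with the SD as a bar, of the genes with the smallest p-values for a change in the regional difference between day 8 and day 2 (top row), week 2 (middle row) and week 4 (bottom row). The duodenum is orange, the ileum blue and day 8 shaded. Pdgfra and Fendrr lie apart at day 8, with the ileum the higher, and Zswim9 has its highest duodenum mean at day 8 and a wide bar in the ileum of week 2.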

How the data were processed

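Whole bowel pieces from the duodenum and ileum of mice were sequenced as total RNA, per the labels' protocols. The authors deposited an estimated count per gene and sample as whole numbers, and the file's name gives tximport as the step that made them. The submitters' processing notes name STAR 2.6.1d, Salmon 0.14.2, DESeq2 1.30.1 and mm10, with no role. The annotation release and the use of strand in counting are not given in the sources used here. Of 54532 gene identifiers, 51106 had a symbol, and gene positions came from GENCODE M21. The authors also deposited, for each region, a normalized signal in which each estimated count is divided by 1 factor per sample. These tables hold 40 of the 48 samples and served here only for symbols and for the choice of samples. The 8 samples they lack (day 4, and sample 3 of day 6, of both regions) were left out of the main model.

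The estimated counts were fitted with edgeR 4.0.16 in R 4.3.3 by the quasi-likelihood test, with TMM scaling, the filterByExpr filter and 1 mean for each of 14 region and age groups, so that all ages shared 1 estimate of the spread. Calls were made at a Benjamini-Hochberg adjusted p under 0.05 over 21617 genes. Levels are CPM of these counts on the TMM-corrected library sizes, means are given with the SD over 3 samples, and ratios resting on 3 counts or fewer have exact 95% intervals that cover counting error only. Promoter windows came from RefSeq on GRCm38.p6. On simulated counts for the day 8 test, 48% of 100 genes changed 2-fold and 70% of 100 genes changed 4-fold were recovered, and 1.67% of calls were false. All other genes of the 21617 were left unchanged, and as many were raised as lowered. In the data 46.1% of genes were called, so these shares need not hold for the real tests. For the changes against day 2, week 2 and week 4, the 2-fold recovery was 26%, 25% and 26%, and 3.53%, 0% and 5.81% of calls were false. Samples of 1 region at day 8 differed from each other beyond sampling noise, with chi-square per degree of freedom from 16.4 to 18.4 in the duodenum and 47.2 to 143 in the ileum, so none was a copy of another, which does not show that they came from separate animals. Among 3 samples against 3 no exact permutation test can go below 0.1, and none was used.

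The members and lists were chosen with earlier results of these data known. Genes named were the 12 largest differences in each direction among called genes with a mean of at least 2 CPM and no overlap between the regions, the 3 smallest p-values of each age comparison, and from each of 49 lists up to 2 called members per direction with the one of most counts. Some other members were named for their known role after their values were seen. Alternatives were RLE size factors, other low-count filters, mitochondrial genes left out, DESeq2 1.42.0, other sets of samples, the sample number as a block, each sample left out in turn and, added after seeing the data, scaling to epithelium markers. A few list members are not reported here by name.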

Additional observations from a re-analysis of the deposited data

Results flagged for a closer look

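For the genes below the regional difference at day 8 differed from that at another age by edgeR's test of the change itself. Values are the log2 ileum-over-duodenum difference at day 8 minus that at the other age, with adjusted p. Groups of 3 samples were too small to look for single outlying samples, and the cause of each change was not tested. Of the 37 changes 7 kept their call under every alternative. With all 48 samples, in which the count of calls was far lower, most were lost. All losses on leaving out 1 sample are given with each gene. With 46 samples (day 6 sample 3 of both regions left out), C8b, Fgb and Lgals3 against day 2 and Col18a1 and Akr1b8 against week 2 were lost. So were Adh6a, Sfrp5, Ky, Fgf15, Zswim9 and Akr1b8 against week 4. With no low-count filter the same were lost, except Lgals3 against day 2 and Akr1b8 against week 2. That setting also ended the Rarres1 call against week 4 (adjusted p = 0.069).

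Several genes with a far higher duodenum level at day 8 changed by week 4. C8b changed by -1.66 against day 2 (adjusted p = 0.0397) and by -5.67 against week 4 (adjusted p = 0.000377), with 0.132 ± 0.106 CPM in the duodenum and 0.128 ± 0.0724 CPM in the ileum of week 4. Arg2 changed by -3.29 against week 4 (adjusted p = 0.0146), where both regions were far above their day 8 level, at 412 ± 75.2 CPM in the duodenum and 112 ± 82.6 CPM in the ileum. Adh6a changed by -2.93 (adjusted p = 0.0417), Sfrp5 by -1.79 (adjusted p = 0.0284), Ky by -2.72 (adjusted p = 0.0454) and Mme by -3.53 (adjusted p = 0.0165) against week 4. Mme stood at 572 ± 379 CPM in the ileum of week 4, against 14.9 ± 2.66 CPM at day 8. The C8b call against day 2 was lost when any 1 of the 12 samples was left out (adjusted p = 0.0557 to 0.125) and with RLE (adjusted p = 0.061), and the Ky call likewise (0.059 to 0.112, and 0.0544 with RLE). The Adh6a call was lost when any sample other than ileum day 8 sample 1 or ileum week 4 samples 2 and 3 was left out (0.0606 to 0.179). The Sfrp5 call was lost without duodenum day 8 sample 2 or 3, duodenum week 4 sample 2, ileum day 8 sample 2 or 3, or ileum week 4 sample 1 (0.0501 to 0.102). With only the groups compared the Adh6a (0.0963) and Sfrp5 (0.0527) calls were lost. Without mitochondrial genes those of Adh6a (0.0511), Ky (0.0569) and C8b against day 2 (0.0532) were lost. The last was also lost with a mean count of at least 10 (0.0617). The Arg2 call was lost without ileum day 8 sample 2 (0.0509) or 3 (0.0625), and that of Mme without ileum week 4 sample 1 (0.0553).

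Among the genes with a higher ileum level, the fibrinogen chains Fga and Fgb changed against day 2 by 3.16 (adjusted p = 0.00423) and 3.39 (adjusted p = 0.0452). Fga was at 1.35 ± 0.556 CPM in the duodenum and 31.9 ± 7.54 CPM in the ileum of day 2, so both regions were lower at day 8 and the duodenum the more so. The Fgb call was lost with the sample number as a block (adjusted p = 0.0794) and when any sample other than duodenum day 2 sample 1 was left out (0.0501 to 0.137). Lrp2 changed by 2.44 against day 2 (adjusted p = 0.0114) and by 4.40 against week 4 (adjusted p = 0.00438). Its level was 10.9 ± 2.38 CPM in the duodenum and 119 ± 18.7 CPM in the ileum at day 2, and 0.312 ± 0.134 CPM and 0.981 ± 0.798 CPM at week 4. Rarres1 changed by 5.0 (adjusted p = 0.0024) and 7.99 (adjusted p = 0.0223), Scd2 by 2.08 (adjusted p = 0.0145) and 3.23 (adjusted p = 0.000653), Abca13 by 2.47 (adjusted p = 0.000304) and 5.68 (adjusted p = 0.000181), and Cysltr1 by 2.75 (adjusted p = 0.00134) and 2.89 (adjusted p = 0.0143), against day 2 and week 4 in that order. Fgf15 changed by -6.67 against week 4 (adjusted p = 0.0429), on a duodenal level of 0.00883 ± 0.0153 CPM at that age. That call was lost with the block (adjusted p = 0.0612), with only the groups compared (0.0879) and when any sample other than duodenum day 8 sample 1 or ileum week 4 sample 1 was left out (0.0593 to 0.106). Against week 4, the Rarres1 call was lost without duodenum week 4 sample 2 (0.344) or 3 (0.0582), and that of Cysltr1 without duodenum week 4 sample 2 (0.0526).

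The mesenchymal genes Fendrr and Pdgfra changed against day 2 by 6.23 and 4.72 (adjusted p = 3.05e-07 for both) and against week 4 by 4.72 (adjusted p = 1.69e-05) and 3.42 (adjusted p = 5.14e-05). Col18a1 changed by 3.30 against day 2 (adjusted p = 1.5e-06) and 2.30 against week 4 (adjusted p = 0.000127). Its value of 1.47 against week 2 (adjusted p = 0.0458) lost its call when any sample other than ileum day 8 sample 2 was left out (0.0603 to 0.194) and without mitochondrial genes (0.0517). Lgals3 changed by 0.90 against day 2 (adjusted p = 0.0222) and 2.92 against week 4 (adjusted p = 1.73e-07), and Akr1c19 and Ugt1a9 changed by 3.38 and 4.79 against week 4 (adjusted p = 1.73e-07 for both). The Lgals3 call against day 2 was lost without duodenum day 2 sample 1 (0.0839), duodenum day 8 sample 1 (0.0526) or ileum day 8 sample 3 (0.0698).

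The smallest p-values against week 2 included changes of direction. Ppef1 changed by 4.33 against day 2 (adjusted p = 0.000132) and 6.24 against week 2 (adjusted p = 3.65e-05). Zswim9 changed by -3.60 against week 2 (adjusted p = 0.0024) and -1.86 against week 4 (adjusted p = 0.0286). It was at 14.1 ± 7.09 CPM in the duodenum and 4.08 ± 0.892 CPM in the ileum of day 8, and at 4.44 ± 0.832 CPM and 15.8 ± 14.2 CPM at week 2, where the ileum samples were spread widely. Akr1b8 changed by -2.79 against week 2 (adjusted p = 0.00674) and -1.45 against week 4 (adjusted p = 0.0391), its day 8 level being 3.71 ± 0.577 CPM in the duodenum and 0.757 ± 0.0633 CPM in the ileum. Against week 4, the Zswim9 call was lost without duodenum day 8 sample 1, duodenum week 4 sample 2 or 3, ileum day 8 sample 1 or 3, or ileum week 4 sample 2 (0.0523 to 0.156). The Akr1b8 call against week 4 was lost with only the groups compared (0.0683) and without mitochondrial genes (0.0507). It was also lost when any sample other than duodenum week 4 samples 1 and 3 or ileum week 4 sample 1 was left out (0.0513 to 0.128). Its call against week 2 was lost with 46 samples (0.103).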

How the results depend on the processing

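The day 8 count of 9973 stayed between 7459 and 10202 under every alternative. Over 1.5-fold, 3866 genes became 2063 with DESeq2, 1368 with all 48 samples and 2489 to 3532 on leaving out 1 sample. Against day 2, 4411 became 1656 with 46 samples, 236 with all 48, 2581 with no low-count filter and 2008 to 3519 on leaving out 1 sample. Against week 2, 158 became 601 with DESeq2, 97 with RLE, 11 with 46 samples, 3 with all 48, 703 with only the groups compared, 46 with no filter, 102 without mitochondrial genes and 11 to 167 on leaving out 1 sample. Against week 4, 2673 became 1200, 413, 1146 and 1615 with 46 samples, all 48, only the groups compared and no filter, and 1659 to 2962 on leaving out 1 sample. Hoxa2, not called at -0.05, was positive with DESeq2 (0.03), RLE (0.01), only the groups compared (0.06), epithelium scaling (0.33), a mean count of at least 10 (0.04), and without duodenum sample 1 (0.09) or ileum sample 1 (0.17), the range on leaving out 1 sample being -0.27 to 0.17. Under epithelium scaling Cd36 (adjusted p = 0.0531), Cps1 (0.208), Ppara (0.289) and Onecut3 (0.0541) also lost their call. Other genes gained one. With only the day 8 groups fitted, Slc11a2 (0.0243), Slc40a1 (0.0127), Slc15a1 (0.0234), Lyz1 (0.000438) and Defa24 (0.0432) were called higher in the ileum. In that fit Apoa4 (0.0327) and Hoxa3 (0.0463) were called higher in the duodenum. Under epithelium scaling Anpep (0.00557), Slc51b (0.00338), Lyz1 (0.0192) and Defa24 (0.00956) were called higher in the ileum. The cause was not tested. Leave-out fits with 2 samples in a group assume that these vary like the other groups.

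Sample numbers are shared between the regions, but the labels do not say what they pair. The correlations of same-numbered deviations were 0.252, 0.124 and 0.152 at day 2 and 0.188, 0.157 and 0.155 at week 2, each the best match of its number, but -0.112, 0.16 and -0.179 at week 4. At day 8 they were 0.015, 0.0892 and 0.0758, and duodenum samples 1 and 3 correlated best with an ileum sample of another number, so the numbers were not taken as pairs in comparisons that all use day 8. With the sample number as a block, 10202 genes were called at day 8, 3986 over 1.5-fold, and 4844, 430 and 2964 against day 2, week 2 and week 4. In that fit Gkn2 (-6.94, adjusted p = 0.0104) and Tff1 (-7.63, adjusted p = 0.0019) were called.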

Other observations

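Other cell types in the bowel wall were less uniform than fibroblasts and vessels. Of 5 markers of the interstitial cells of Cajal, the pacemaker cells of gut muscle, 3 were higher in the ileum and none in the duodenum. Etv1, a factor of these cells, was at 2.07, 2.37 and 2.47 CPM in the duodenum and 9.03, 5.16 and 7.13 CPM in the ileum (log2 difference 1.62 ± 0.35 SE, adjusted p = 0.000308). Ednrb, the endothelin receptor B that enteric nerve precursors, vessels and these cells share, was at 0.754, 1.73 and 0.874 CPM in the duodenum and 11.7, 13.2 and 13.6 CPM in the ileum (log2 difference 3.51 ± 0.47 SE, adjusted p = 1.04e-06). Of 7 markers of lymphoid follicle stroma tested, 3 were higher in the ileum, among them Tnfrsf11b, osteoprotegerin, at 0.84, 1.38 and 1.34 CPM in the duodenum and 4.85, 2.87 and 5.11 CPM in the ileum. Of 5 adipose markers tested 1 was higher in the ileum, Lpl, lipoprotein lipase, at 5.17, 7.30 and 7.22 CPM in the duodenum and 21.8, 11.4 and 16.8 CPM in the ileum. The Lpl call ended without duodenum sample 1 (edgeR adjusted p = 0.0508) or ileum sample 1 (adjusted p = 0.0587). Of the 9 adipose markers listed, 4 had no count in the duodenum samples of day 8, among them the fat cell genes Adipoq, Lep and Retn. Of these 4, 2 had no count in the ileum samples either. Of 12 caecum and colon markers, 2 were higher in each region (1 in the duodenum on leaving out any 1 sample, and 1 in the ileum without duodenum sample 2 or 3 or ileum sample 1), and the list summed to 354.1 to 383.6 CPM in the duodenum and 337.2 to 356.2 CPM in the ileum. None of the 3 pancreatic islet markers tested was called, and of 12 neutrophil and mast cell markers 2 were higher in the ileum (1 without duodenum sample 1) and 1 in the duodenum, with a median that turned from -0.27 to 0.16 under epithelium scaling.

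Afp, alpha-fetoprotein, a serum protein of fetal liver and gut, changed its regional order with age. At day 8 it was at 16.5, 19.1 and 13.8 CPM in the duodenum and 51.7, 74.1 and 67.5 CPM in the ileum (log2 difference 1.97 ± 0.48 SE, adjusted p = 0.00149). At day 2 the levels were 26 ± 3.3 CPM and 753 ± 343 CPM, a difference larger than that of day 8 by edgeR's test of the change (-2.88, adjusted p = 0.00383). At week 4 they were 46.3 ± 4.75 CPM and 7.85 ± 6.32 CPM, with the duodenum the higher (change 4.56, adjusted p = 7.82e-05). Afp was singled out after its values were seen.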
